A study of Mus musculus with 16 samples.

Results

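Eva1a and 8 genes of the core autophagy machinery were followed across 4 diets in mouse liver. The 9 genes are Eva1a, Ulk1, Becn1, Atg7, Map1lc3a, Map1lc3b, Gabarapl1, Sqstm1 and Tfeb, found by symbol among the 54752 genes of the count table. Eva1a was picked because it was lower in low-fat than in low-protein livers, so its levels in those groups are given as a description without a test. The other 8 genes were picked for their place in the pathway. All 9 genes had counts in every library and passed the filter on low counts. The library of control animal 4 stood apart from the other 15 in many genes, so values against control are given with and without it.

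The libraries came from snap-frozen liver of male mice aged 11 weeks, F1 Hybrid C57BL6J/FVBN, of genotype Ercc1 d/-, with 4 animals per diet. The high protein group ate a diet with about 194% of the standard protein and 70% of its carbohydrate. The low protein diet had 70% of the standard protein, and the low fat diet 70% of its fat, each with carbohydrate raised to about 112%, so no diet altered a single nutrient. Animals labelled AIN93G control stayed on the standard synthetic diet on which all were raised until 8 weeks of age. Food was offered without limit. Ercc1 encodes a subunit of a DNA repair endonuclease, and mice with a truncated and a null allele age early. Every animal, controls included, carried this genotype, and no wild type was analysed here. The samples are whole tissue, in which fewer cells of a type and less RNA per cell cannot be told apart. Litters and cages are not labelled, so the p-values reflect only how these particular samples vary, which may in part be technical.

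Autophagy encloses part of the cytoplasm in a double membrane and delivers it to the lysosome. The ULK1 kinase complex starts the process, and a lipid kinase complex that contains Beclin 1 (Becn1) marks the growing membrane. ATG7 activates the ubiquitin-like ATG8 proteins (LC3 and GABARAP families), which are attached to that membrane and bind cargo receptors such as p62 (Sqstm1). TFEB is a transcription factor that turns on lysosomal and autophagy genes when nutrients are short. In liver, fasting and glucagon raise autophagy, and feeding and insulin lower it. EVA1A, also called TMEM166, is a transmembrane protein of the endoplasmic reticulum and lysosome that promotes autophagy. Transcript levels do not measure the rate of autophagy.

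RefSeq promoter windows (GRCm38.p6, 250 bases before to 50 after a start site) were matched by symbol for 7 of the 9 genes: Eva1a, Ulk1, Atg7, Map1lc3b, Gabarapl1, Sqstm1 and Tfeb. They were searched on both strands for the E-box CACGTG bound by TFEB-family and other factors, and for the longer CLEAR palindrome of lysosomal genes, which contains it. Also searched were a FoxO motif (GTAAACA), a cAMP response element (TGACGTCA) and a C/EBP-ATF composite site (TGATGCAAT). The E-box was present in the windows of Eva1a and Atg7 and in none of the other 5 genes. The Atg7 window begins at base 114670846, inside the gene, whose annotated start is base 114643097. The Eva1a window also lies inside its gene, beginning at base 82041378, past the annotated start at base 82041043. No window at the annotated start of either gene was searched. Among all 32851 mouse promoter windows, 7.15% held the E-box. None of the other 4 motifs was found in these windows, and each occurred in 0.192% to 3.65% of all windows. Eva1a and Atg7 are shown first because their levels in 1 control library, described below, stood apart from those of the other genes, and the windows of 3 of those other genes follow. Capitals mark the E-box, whose first base lies at position -71 from the start site in Eva1a and -132 in Atg7. A match is a description of letters, and binding was not measured.
Eva1a, chr6:82041378-82041677, plus strand: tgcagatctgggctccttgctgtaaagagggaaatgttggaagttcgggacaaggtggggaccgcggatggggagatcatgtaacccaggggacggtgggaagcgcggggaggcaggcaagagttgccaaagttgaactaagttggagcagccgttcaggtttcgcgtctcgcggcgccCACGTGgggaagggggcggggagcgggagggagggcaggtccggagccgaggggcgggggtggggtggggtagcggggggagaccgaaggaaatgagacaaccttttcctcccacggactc
Atg7, chr6:114670846-114671145, plus strand: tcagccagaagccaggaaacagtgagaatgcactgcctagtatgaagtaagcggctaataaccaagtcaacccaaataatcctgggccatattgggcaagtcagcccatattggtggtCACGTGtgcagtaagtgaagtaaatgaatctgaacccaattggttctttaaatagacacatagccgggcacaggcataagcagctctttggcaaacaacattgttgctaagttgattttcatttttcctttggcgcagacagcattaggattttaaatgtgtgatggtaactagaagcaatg
Map1lc3b, chr8:121590188-121590487, plus strand: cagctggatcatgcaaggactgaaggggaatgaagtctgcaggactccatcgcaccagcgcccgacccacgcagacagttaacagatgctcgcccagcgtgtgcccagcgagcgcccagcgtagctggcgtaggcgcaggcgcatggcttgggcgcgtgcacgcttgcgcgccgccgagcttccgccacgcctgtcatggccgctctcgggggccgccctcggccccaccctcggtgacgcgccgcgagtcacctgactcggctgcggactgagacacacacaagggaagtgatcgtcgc
Sqstm1, chr11:50210771-50211070, minus strand: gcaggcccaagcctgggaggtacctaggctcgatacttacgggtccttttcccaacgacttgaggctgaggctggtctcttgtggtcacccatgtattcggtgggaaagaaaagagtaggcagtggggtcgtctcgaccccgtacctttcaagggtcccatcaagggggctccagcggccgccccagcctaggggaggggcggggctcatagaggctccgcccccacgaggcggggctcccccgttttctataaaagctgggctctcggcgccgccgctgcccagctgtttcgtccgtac
Gabarapl1, chr6:129532942-129533241, plus strand: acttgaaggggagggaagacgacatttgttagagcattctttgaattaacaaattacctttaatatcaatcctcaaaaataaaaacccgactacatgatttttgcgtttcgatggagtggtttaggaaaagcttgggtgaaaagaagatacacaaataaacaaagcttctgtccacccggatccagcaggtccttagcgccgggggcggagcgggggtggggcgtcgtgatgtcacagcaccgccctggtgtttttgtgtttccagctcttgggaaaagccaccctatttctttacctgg

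Scaled for exon length and depth (TPM), Gabarapl1 was the most abundant of the 9 in every library, with a median of 443 TPM over the 16 libraries. Sqstm1 followed at a median of 233 TPM, above Eva1a in 16 of 16 libraries. Eva1a (53.5 TPM), Map1lc3a (49.4 TPM), Map1lc3b (33.3 TPM) and Ulk1 (31.5 TPM) formed the middle of the order. Within it Eva1a exceeded Map1lc3a in 11 of 16 libraries and Map1lc3b exceeded Ulk1 in 10 of 16, so these neighbours were not separated beyond their spread. Map1lc3a exceeded Map1lc3b in 15 of 16 libraries. Becn1 (16.2 TPM), Atg7 (9.36 TPM) and Tfeb (3.31 TPM) were each below the gene before them in every library.

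Levels within a gene are given as CPM, counts relative to library sizes scaled by TMM, a factor per library that balances the bulk of genes. Eva1a (chromosome 6, 82041043 to 82093099, plus strand, GRCm38) had 78.1, 91.0, 69.2 and 64.3 CPM in high-protein livers 1 to 4. It had 75.2, 88.2, 75.9 and 84.9 CPM in low-protein livers and 58.3, 50.4, 57.9 and 41.0 CPM in low-fat livers. Controls had 65.7, 72.3, 62.1 and 71.6 CPM. On this scale all 4 low-fat livers were below the other 12 libraries, and low-fat liver 4 was the lowest. On library totals the highest low-fat liver, at 61.4 CPM, exceeded high-protein liver 4 (59.1 CPM) and control 4 (55.7 CPM). The means were 75.6 ± 11.7 CPM with high protein, 81.1 ± 6.48 CPM with low protein, 51.9 ± 8.13 CPM with low fat and 67.9 ± 4.92 CPM in controls (SD, n = 4 each).

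As a description, the log2 fold change of Eva1a was -0.64 for low fat over low protein, -0.39 for low fat over control and 0.26 for low protein over control (-0.39 and 0.26 without control 4), 0.54 for high protein over low fat and -0.10 for high over low protein. The low-fat and low-protein values did not overlap. Of all 17833 genes tested, 2.14% lay lower in low fat than in low protein without overlap, a share from which nothing is read because Eva1a was chosen on that contrast. It also lay without overlap below control in low fat, above control in low protein and above low fat in high protein. The shares of all genes doing so were 1.32%, 1.61% and 4.23%. Each of these contrasts holds low-fat or low-protein livers that took part in the choice of Eva1a, so nothing is read from these shares either. On library totals and in TPM the separations of low fat from low protein and of low protein from control held, while low fat overlapped both control and high protein. None of the 9 genes separated high protein from control without overlap, where 1.12% of all genes did so upward and 0.841% downward, or high from low protein, where 3.15% and 3.47% did. The high-protein and control libraries played no part in the choice of Eva1a, which had between them a log2 fold change of 0.15 (SE 0.14), with an adjusted p of 0.787 by edgeR's quasi-likelihood test (0.17 and 0.706 without control 4). Its relatives were low in liver. Eva1b ran from 2.90 to 7.16 CPM over the 16 libraries, and Eva1c from 0.181 to 0.790 CPM apart from control 4 at 2.58 CPM.

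**Figure D1:**
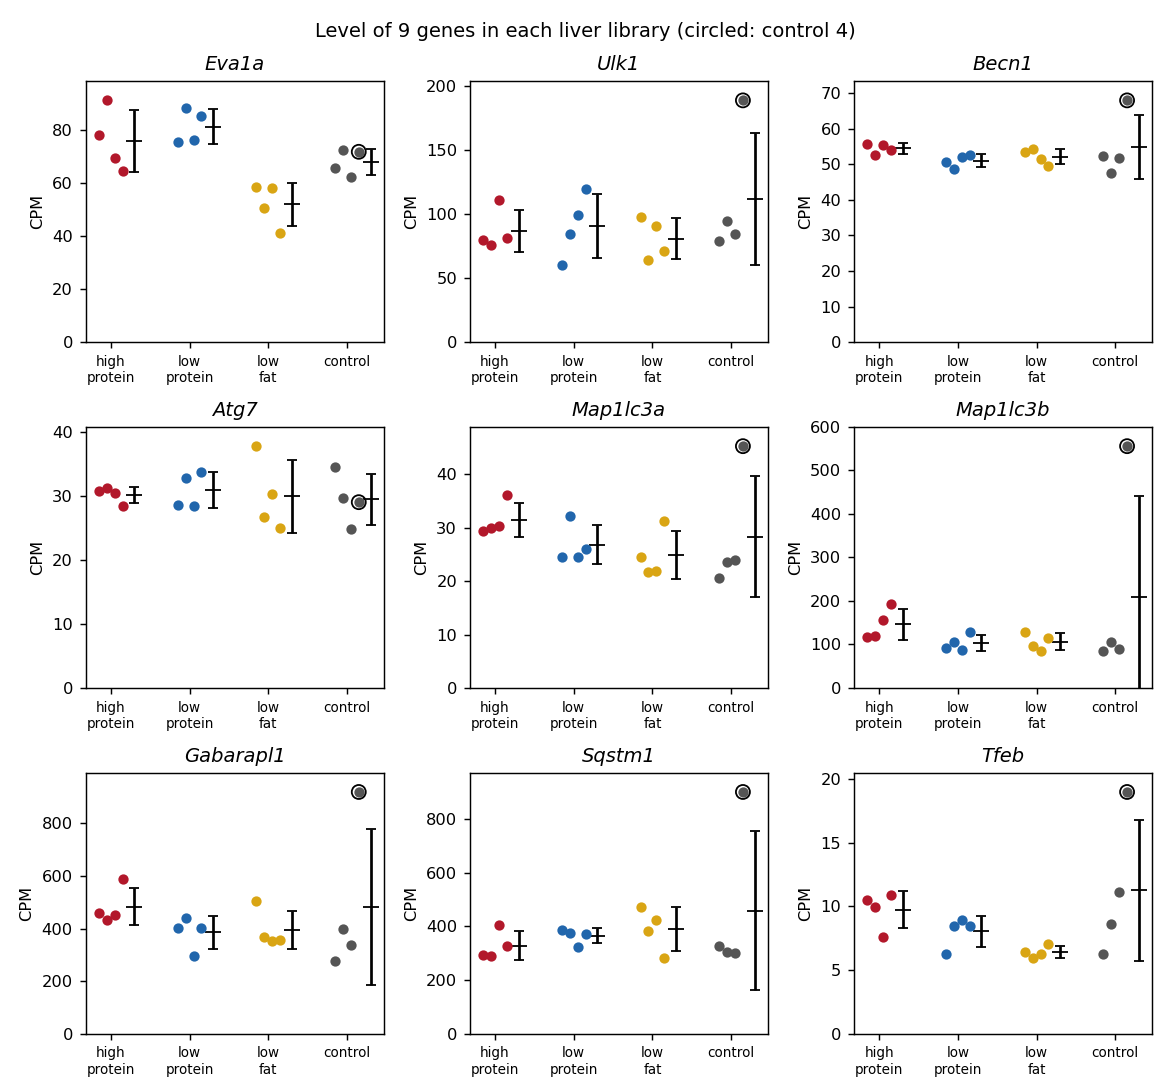
CPM of each of the 9 genes in the 16 livers (4 points per diet on the horizontal axis), with the diet's mean and SD as a bar beside the points; in Map1lc3b the lower end of the control bar passes below 0 and is cut by the axis. On this TMM scale low-fat livers hold the 4 lowest Eva1a values (41.0 to 58.3 CPM), which on library totals reach above high-protein liver 4 and control 4. On the same scale the circled control 4 is the highest of all 16 for Ulk1, Becn1, Map1lc3a, Map1lc3b, Gabarapl1, Sqstm1 and Tfeb, which on library totals holds for all of these but Becn1.

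The core genes were set apart by 1 library, control 4, more than by any diet. Map1lc3b, which encodes the LC3B protein of autophagosomes (chromosome 8, 121590361 to 121598760, plus strand), had 118, 119, 155 and 193 CPM with high protein. It had 92.9, 105, 87.0 and 129.6 CPM with low protein, 128, 96.5, 84.9 and 116 CPM with low fat, and 84.6, 105, 89.3 and 556 CPM in controls. Control 4 was thus 5.99 times the mean of the other 3 controls and 2.88 times the next highest library, high-protein liver 4.

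Sqstm1, which encodes a receptor for ubiquitinated cargo (chromosome 11, 50199366 to 50210827, minus strand), had 293, 291, 404 and 326 CPM with high protein and 386, 376, 323 and 374 CPM with low protein. It had 472, 381, 425 and 282 CPM with low fat and 327, 306, 302 and 902 CPM in controls. Gabarapl1, an ATG8-family gene (chromosome 6, 129533160 to 129542346, plus strand), had 459, 434, 452 and 589 CPM with high protein and 401, 441, 297 and 401 CPM with low protein. Its levels were 504, 367, 354 and 356 CPM with low fat and 277, 397, 336 and 919 CPM in controls. For both genes control 4 was the highest of 16 libraries, at 2.89 and 2.73 times the mean of controls 1 to 3.

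Ulk1, the initiating kinase (chromosome 5, 110784488 to 110810097, minus strand), had 79.7, 75.5, 111 and 81.4 CPM with high protein, 60.4, 84.3, 99.1 and 119 CPM with low protein, 97.5, 63.9, 90.3 and 71.2 CPM with low fat, and 79.0, 94.7, 84.3 and 189 CPM in controls. Map1lc3a, which encodes LC3A (chromosome 2, 155276297 to 155278073, plus strand), had 29.3, 29.9, 30.3 and 36.1 CPM with high protein, 24.5, 32.3, 24.6 and 26.1 CPM with low protein, 24.5, 21.8, 21.9 and 31.3 CPM with low fat, and 20.6, 23.6, 24.0 and 45.3 CPM in controls. Control 4 stood at 2.19 times the other controls for Ulk1 and 1.99 times for Map1lc3a. High-protein liver 4 held the second highest level of Map1lc3a, Map1lc3b and Gabarapl1.

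The remaining 2 genes of the machinery moved little. Becn1 (chromosome 11, 101285952 to 101302286, minus strand) ran from 47.6 to 55.8 CPM in 15 libraries and reached 68.0 CPM in control 4, 1.34 times the other controls. Atg7, the enzyme that activates ATG8 proteins (chromosome 6, 114643097 to 114860614, plus strand), ran from 24.8 to 37.8 CPM. Control 4, at 29.0 CPM, ranked 10 of 16 from the top for Atg7, and it ranked 8 of 16 for Eva1a at 71.6 CPM.

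These ratios depend on the scaling of control 4, whose TMM factor was 0.778. Without the factor every gene in control 4 shifts by -0.42 on the log2 scale relative to the other controls. The ratios then become 4.46 for Map1lc3b, 2.15 for Sqstm1, 2.03 for Gabarapl1, 1.63 for Ulk1 and 1.48 for Map1lc3a, with Tfeb between the last pair. For Becn1 the ratio became 0.999, so that its higher level in control 4 was not seen on library totals, and it was 0.801 for Eva1a and 0.735 for Atg7. The median log2 difference of all genes was -0.43 on library totals, so the ratio of Becn1 lay above the middle of all genes and that of Atg7 close to it. On library totals control 4 stayed the highest of 16 for the other 6 genes, ranked 8 for Becn1 and 14 for Eva1a, and was the lowest for Atg7.

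Genes of the fasting and glucagon response were high in the same library. Summed over 11 listed genes, they came to 7717 to 15285 CPM of library totals with high protein, 3407 to 5496 with low protein, 4197 to 5928 with low fat and 4879 to 5690 in controls 1 to 3, against 46285 in control 4. Control 4 held 2.62 times the Pck1 (gluconeogenesis) of the next highest library, high-protein liver 4. Relative to controls 1 to 3 it held 20.5 times the Tat (tyrosine breakdown), 17.2 times the Got1 (aspartate transamination) and 96.4 times the Igfbp1 (a secreted protein that insulin represses). The list did not move as a whole. Creb3l3, a transcription factor of the fasting liver, was lowest of 16 in control 4, and the hormone gene Fgf21 ranked 15 of 16 from the top. Within the high-protein group, liver 4 had the highest sum of this list and the highest Map1lc3a, Map1lc3b and Gabarapl1. The part of feeding state in these levels was not tested, since the labels give no time of feeding or sampling.

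**Figure D2:**
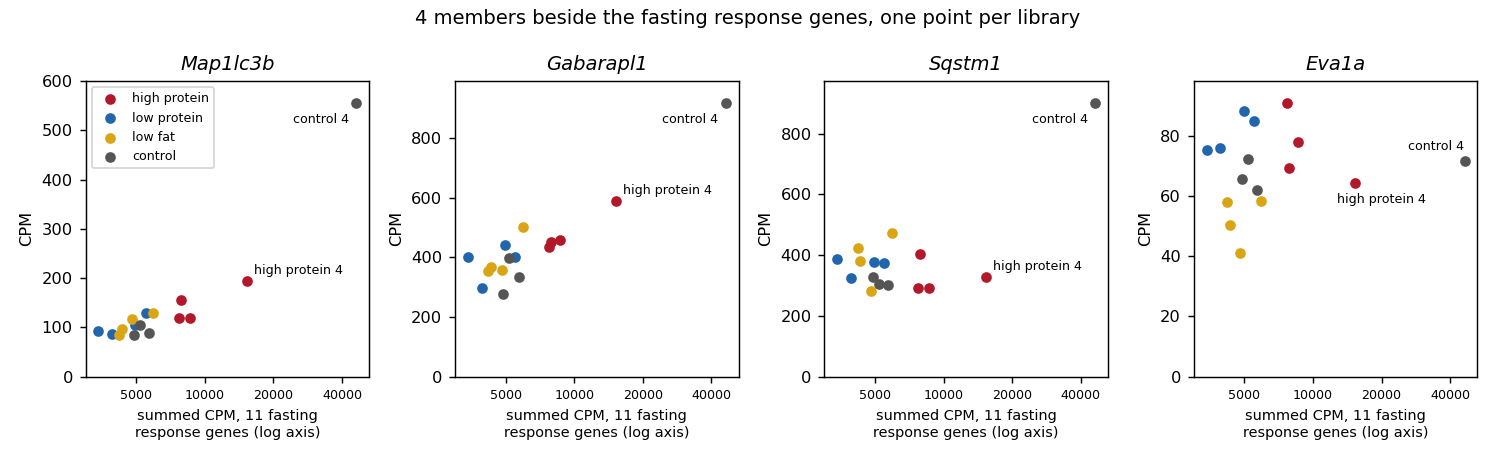
CPM of Map1lc3b, Gabarapl1, Sqstm1 and Eva1a (vertical axes) against the summed CPM of library totals of 11 fasting response genes (horizontal log axis), 1 point per liver, coloured by diet. Control 4 lies at 46285 on the horizontal axis and is highest for Map1lc3b (556 CPM), Gabarapl1 (919 CPM) and Sqstm1 (902 CPM), while its Eva1a level (71.6 CPM) is among those of the other controls.

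Other stress genes did not all follow. The heme oxygenase gene Hmox1 in control 4 was at 10.4 times its level in controls 1 to 3, and at 7.68 times on library totals. The summed level of 9 NRF2 targets, oxidative stress genes that include Hmox1, was 1261 CPM of library totals there. That was the lowest of 16 libraries on a scale that shifts every gene of control 4 by -0.42 in log2. On the TMM scale control 4 had a median log2 difference of -0.41 from controls 1 to 3 over the 8 of these targets tested. Its Kupffer cell and macrophage sum (12 of 13 listed genes in the table) was 184 CPM, the lowest of the 16 libraries, and its sum of 9 hepatocyte genes was 86395 CPM, within the range of 81401 to 113681 CPM over all controls. Its sum of 8 endothelial genes, 207 CPM, was the highest of 16, next to 206 CPM in control 3. The part of these cells in the levels of control 4 was not tested.

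With all 16 libraries, none of the 8 core genes passed an adjusted p of 0.05 in any of the 6 comparisons of diets, and 0% of the 17833 genes did. DESeq2 and limma-voom called 0 of the 8 as well. At an unadjusted p under 0.05, 0 of 8 differed between high protein and control, where 6.22% of all genes did so, and 0 of 8 between low protein and control, against 7.08% of all genes. Between low fat and control 1 of 8 (Tfeb) did so, against 9.22% of all genes. Low fat and low protein differed in 0 of 8 (2.38% of all genes), high and low protein in 0 of 8 (5.17% of all genes), and high protein and low fat in 1 of 8, again Tfeb (9.08% of all genes). In a test of the 3 diets against control together, 0 of the 8 were called, and Tfeb alone had an unadjusted p under 0.05 (adjusted p = 0.737 by edgeR), against 6.59% of all genes.

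The fold changes against control turned on control 4. Over the 8 core genes the log2 fold change with high protein ran from -0.51 (Map1lc3b) to 0.15 (Map1lc3a). Without control 4 it ran from 0.01 (Ulk1) to 0.65 (Map1lc3b), and all 8 were above 0, as were 48.2% of all 18090 genes. Control 4 was the highest of 16 libraries for all of these but Atg7, so leaving it out lowers their control means. In the fit without control 4, 3 of the 8 had an unadjusted p under 0.05, against 8.79% of 18090 genes, and none passed the adjusted threshold. They were the ATG8-family genes Map1lc3b (0.65, SE 0.20, adjusted p = 0.441 by edgeR), Map1lc3a (0.46, SE 0.14, adjusted p = 0.446 by edgeR) and Gabarapl1 (0.51, SE 0.17, adjusted p = 0.478 by edgeR). Each of these was higher in 4 of 4 high-protein livers than in controls 1 to 3. The share of all genes separated in this way without control 4 was not counted, so nothing is read from that separation. High-protein livers held more fasting-response transcripts than controls 1 to 3, as given above, and the part of that difference was not tested.

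With low protein, the log2 fold changes over control ran from -1.01 (Map1lc3b) to 0.07 (Atg7), and without control 4 from -0.13 (Tfeb) to 0.22 (Map1lc3a). No core gene had an unadjusted p under 0.05 without control 4, against 3.65% of genes. With low fat they ran from -0.97 (Map1lc3b) to 0.02 (Atg7), and without control 4 from -0.47 (Tfeb) to 0.29 (Sqstm1). The same control livers serve all 3 comparisons, so the 3 sets of values are not independent of each other.

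**Figure D3:**
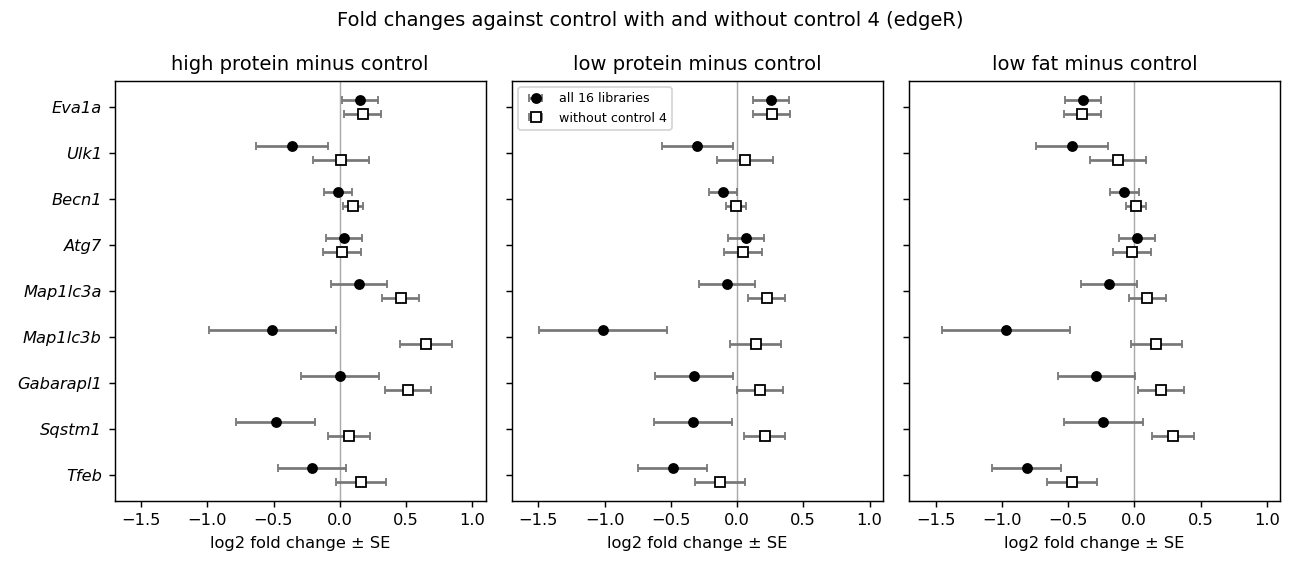
Log2 fold change of the 9 genes over control with its standard error (horizontal axes) for high protein, low protein and low fat, from the edgeR fit of all 16 libraries (filled circles) and of the 15 libraries without control 4 (open squares). Map1lc3b moves from -0.51 to 0.65 with high protein, from -1.01 to 0.14 with low protein and from -0.97 to 0.17 with low fat when control 4 is left out, while Eva1a and Atg7 stay near the same place.

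Between the altered diets, where control 4 has no part in the means, the core genes were close together. The log2 fold changes ran from -0.33 (Tfeb) to 0.10 (Sqstm1) for low fat over low protein, from -0.15 (Sqstm1) to 0.50 (Map1lc3b) for high over low protein, and from -0.25 (Sqstm1) to 0.60 (Tfeb) for high protein over low fat. All 5 ATG8-family genes (Map1lc3a, Map1lc3b, Gabarap, Gabarapl1 and Gabarapl2) had log2 fold changes above 0 in high protein over low protein, with a median of 0.23, and over low fat, with a median of 0.29. The medians of all genes were -0.02 in both comparisons, and 47.5% and 47.0% of all genes were above 0. No gene of the family had an unadjusted p under 0.05 in either comparison by edgeR. That fit estimates spread over all 16 libraries, so control 4 has a part in these p-values. For high protein over control the SE of Map1lc3b was 0.48 with control 4 and 0.20 without it. It was 0.48 for high over low protein in the fit of all 16 libraries. A fit of only the 2 compared diets, which holds no control, called no core gene in either comparison. In that fit 2034 of 16638 genes had an unadjusted p under 0.05 by edgeR for high over low protein. For high protein over low fat 2836 of 16790 did. The fold changes of the ATG8 family in that fit are not given here. By limma-voom, 1 of 8 core genes had an unadjusted p under 0.05 for high over low protein (2138 of all 17833 genes). For high protein over low fat 2 of 8 did (3479 of 17833).

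Tfeb, the transcription factor of lysosomal genes (chromosome 17, 47737030 to 47792419, plus strand), had 10.5, 9.98, 7.63 and 10.9 CPM with high protein and 6.25, 8.48, 8.95 and 8.47 CPM with low protein. It had 6.44, 5.94, 6.24 and 7.06 CPM with low fat and 6.30, 8.63, 11.1 and 19.0 CPM in controls. The high-protein livers were all above the low-fat livers, as they were for 4.23% of all genes, and the other diet pairs overlapped. For high protein over low fat the log2 fold change was 0.60 (SE 0.26, adjusted p = 0.534 by edgeR). For low fat over control it was -0.81 (SE 0.26, adjusted p = 0.530 by edgeR), and without control 4 it was -0.47 (adjusted p = 0.893 by edgeR), where 5.57% of all genes had an unadjusted p under 0.05. The separation of Tfeb between high protein and low fat held on library totals and ended in TPM.

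Transcripts of kidney were present in these livers. Summed over 16 of 18 listed kidney genes, they came to 1.13 to 1384 CPM of library totals with high protein, 603 to 1125 with low protein, 900.1 to 2755 with low fat and 82.8 to 4690 in controls, with all 16 detected in each diet. Each low-fat liver exceeded 3 of the 4 controls in this sum. As a description, on the contrast that chose Eva1a, its log2 fold change for low fat over low protein was -0.63 with the log2 kidney sum as a covariate and -0.64 without it. The part of kidney transcripts in the level of Eva1a was not tested.

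The other genes of the pathway were taken from 9 lists by role, which hold 106 genes analysed here, the 8 core genes included. None of the 106 passed the adjusted threshold by edgeR, DESeq2 or limma-voom with all libraries in any of the 6 comparisons. At an unadjusted p under 0.05, 2 were higher and 7 lower with high protein than in controls, against 2.48% higher and 3.74% lower of all genes. With low protein 1 was higher and 7 lower, against 2.35% and 4.73% of all genes. With low fat 1 was higher and 9 lower, against 3.09% and 6.13% of all genes. The median log2 fold changes of the 106 were -0.11, -0.08 and -0.08, against -0.06, -0.03 and -0.02 for all genes. Without control 4 the counts became 11 higher and 1 lower with high protein, against 4.68% and 4.11% of all genes. They became 1 higher and 2 lower with low protein (2.02% and 1.63% of all genes), and 0 higher and 1 lower with low fat (2.43% and 3.15% of all genes).

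The genes behind these counts were mostly those that stood out in control 4. Retreg1, a receptor for autophagy of the endoplasmic reticulum, had 1887 CPM in control 4 and 58.9 to 99.9 CPM in controls 1 to 3. Its log2 fold change for high protein over control was -2.09 (SE 0.83, adjusted p = 0.762 by edgeR) with all libraries and 0.65 (adjusted p = 0.446 by edgeR) without control 4. Ctsl, a cysteine protease of the lysosome, had 7802 CPM in control 4 and 527 to 683 CPM in the other controls. Control 4 also held 737 CPM of Bnip3 (a receptor for mitochondria), 932 CPM of Ncoa4 (a receptor for ferritin), 55.5 CPM of Wipi1 (a phosphoinositide-binding protein of the early membrane) and 179 CPM of Rb1cc1 (a scaffold of the ULK1 complex), each above every other library. Stbd1, which binds glycogen, went the other way, with 12.4 CPM in control 4 and 38.7 to 62.8 CPM in controls 1 to 3.

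By role, the median log2 difference of control 4 from controls 1 to 3 was 1.00 for the 5 ATG8-family genes, 0.85 for the 5 initiation genes, 0.76 for 14 cargo receptors, 0.55 for 13 fusion genes, 0.44 for 8 membrane growth genes, 0.40 for 8 nucleation genes and 0.39 for 11 conjugation genes. It was 0.14 for 23 lysosomal proteins and -0.04 for 19 genes of lysosome control, against -0.00 for all genes. Of the 106 genes, 22.6% were more than 2-fold higher in control 4, against 15.8% of all genes. Within the ATG8 family Gabarap (176 CPM) lay within the range of the other controls, 162 to 189 CPM. Gabarapl2 (44.9 CPM) was above their 34.1 to 39.4 CPM, with a log2 difference of 0.29, and next to the highest of the other 15 libraries (44.4 CPM). On library totals every one of these medians is lower by 0.42, which puts those of the nucleation and conjugation genes and of the lysosomal proteins below 0. The median of all genes falls alike, to -0.43, so the place of each list relative to it does not change. As control 4 is 1 library, no test was made.

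**Figure D4:**
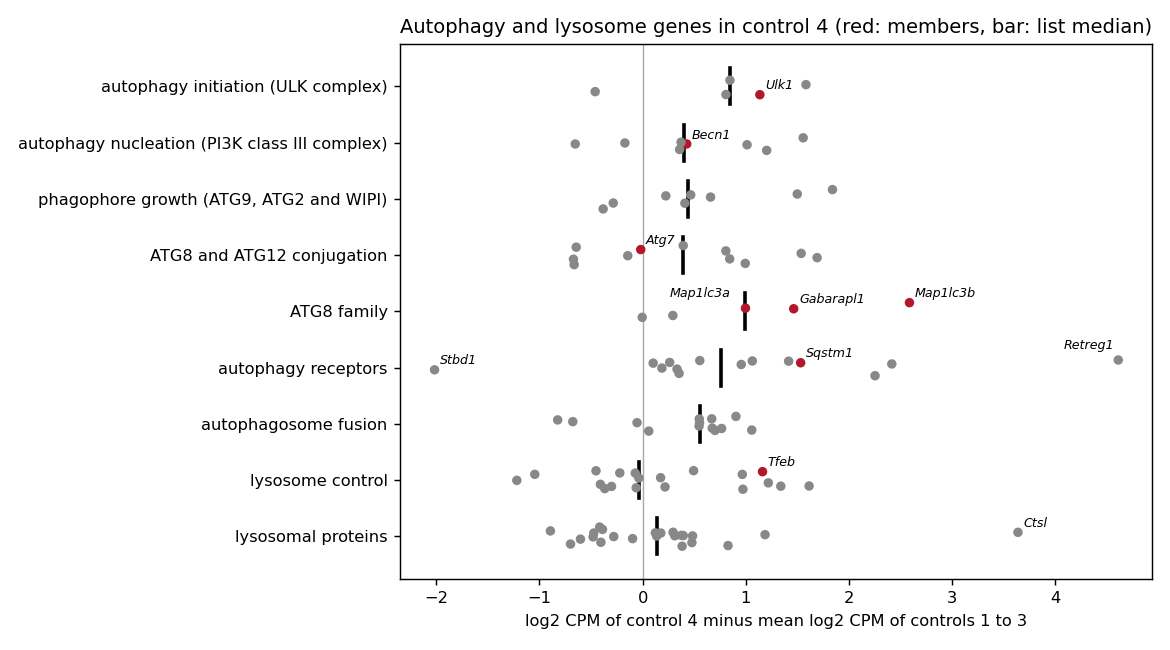
Log2 CPM of control 4 minus the mean log2 CPM of controls 1 to 3 (horizontal axis) for each gene of the 9 role lists (rows), with list medians as bars and core genes in red. Retreg1 (1887 CPM in control 4) and Ctsl (7802 CPM) lie farthest to the right, and the medians run from 1.00 in the ATG8 family to -0.04 in lysosome control.

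Between the altered diets, for high protein over low fat 4 list genes had an unadjusted p under 0.05 and were higher (Tfeb, the receptors Optn and Tex264, and Hexa, a subunit of a lysosomal hexosaminidase) and 4 lower (Fundc1, Atg10, Ccpg1 and Tmem41b), against 4.67% and 4.41% of all genes. Optn averaged 117 ± 6.74 CPM with high protein and 94.4 ± 12.3 CPM with low fat (SD, n = 4 each), and Atg10, a conjugating enzyme, averaged 2.19 ± 0.313 CPM with high protein and 3.20 ± 0.813 CPM with low fat. High over low protein held 0 higher and 1 lower (2.34% and 2.83% of all genes), Atg101 of the ULK1 complex, with 24.2 ± 2.99 CPM with high protein and 36.1 ± 3.78 CPM with low protein (SD, n = 4 each). Low fat over low protein held 0 higher and 1 lower (1.01% and 1.37% of all genes), Stx17, a membrane fusion protein, with 27.2 ± 3.75 CPM with low fat and 32.9 ± 2.91 CPM with low protein (SD, n = 4 each). The adjusted p-values of all these genes were 0.468 or higher by edgeR.

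The genes whose levels ran most like Eva1a were not core autophagy genes. Over the 16 libraries and 13686 protein-coding genes, the highest Pearson correlations of log2 CPM with Eva1a were those of Npc1 (0.87), Eif4ebp2 (0.86), Adcy9 (0.85), Plpp3 (0.83) and Insr (0.80), with Spearman correlations of 0.79, 0.80, 0.74, 0.76 and 0.71. Npc1 exports cholesterol from lysosomes, Eif4ebp2 encodes a translation repressor, Adcy9 an adenylyl cyclase, Plpp3 a lipid phosphatase and Insr the insulin receptor. Without low-fat livers 4 and 2, the farthest from the median of Eva1a, the Pearson values were 0.67, 0.68, 0.62, 0.69 and 0.55. Npc1 averaged 169.6 ± 11.6 CPM with high protein, 176 ± 12.7 CPM with low protein, 139 ± 17.0 CPM with low fat and 164 ± 10.1 CPM in controls (SD, n = 4 each).

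After subtracting each diet's mean, the closest genes were Eif4ebp2 (0.89), Anln (0.87), Adcy9 (0.82), Unc93a2 (0.78) and Tmem170 (0.76), so Eif4ebp2 and Adcy9 were in both sets. Among the core genes the Pearson correlation with Eva1a over the 16 libraries ran from 0.03 (Sqstm1) to 0.45 (Atg7). After subtracting diet means it ran from -0.10 (Map1lc3a) to 0.65 (Atg7), where Npc1 had 0.63 and Plpp3 0.47. These are descriptions over libraries that share a scaling and a diet structure, chosen from many genes, and carry no p. By Spearman correlation 1 of the 5 genes named first stayed among the closest 5.

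**Figure D5:**
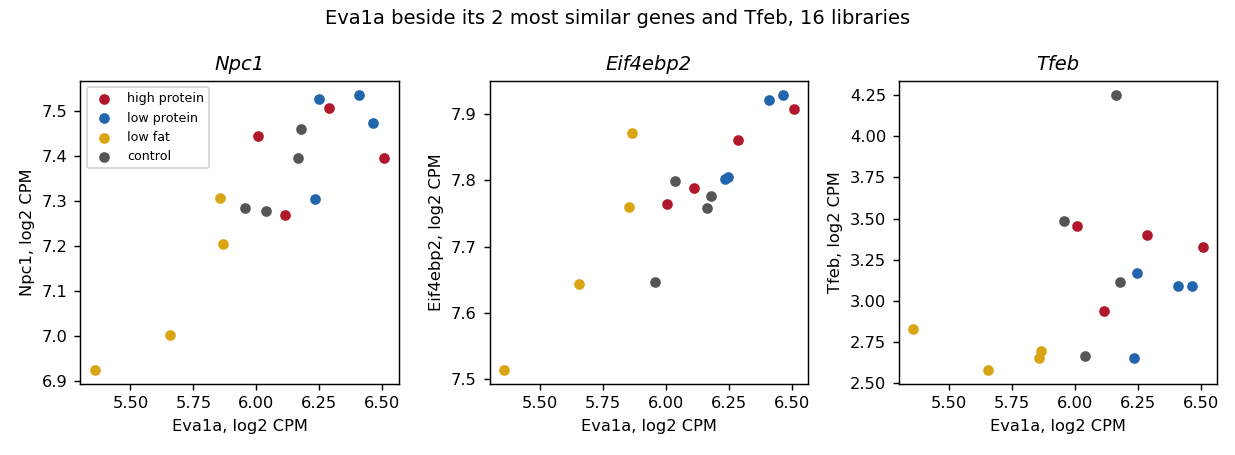
Log2 CPM of Npc1, Eif4ebp2 and Tfeb (vertical axes) against log2 CPM of Eva1a (horizontal axes), 1 point per liver, coloured by diet. The low-fat livers lie at the left in each panel, and the Pearson correlations are 0.87 for Npc1, 0.86 for Eif4ebp2 and 0.37 for Tfeb.

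Library totals ran from 35243594 to 112789127 counts, with low-fat liver 2 the deepest. The scarcest core gene, Tfeb, had 217 to 710 counts per library and Eva1a 1549 to 6023. No pair of libraries of a diet agreed within counting noise, so each was counted as a separate sample. Ercc1 itself was counted at most 175 times per library and carries the same alleles in every group, so it checks no comparison. Of genes that overlap a member, Zcchc14 lies on the opposite strand from Map1lc3b (25.3 to 45.5 CPM) and Mrnip from Sqstm1 (1.17 to 8.20 CPM). The strand setting of the counting is not given in the sources used here, so reads of these pairs may be shared.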

How the data were processed

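Read counts per gene of 16 liver libraries, as whole numbers, were deposited by the authors. The submitters' processing notes name edgeR 3.32.1, Subread 1.6.4 with featureCounts, STAR 2.7.0f and Trimmomatic 0.39, on GRCm38.p6. They give no strand setting or annotation release. Identifiers were matched to GENCODE M21 for symbols (53861 of 54752, at the same positions).

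Genes passing filterByExpr (17833) were tested with edgeR 4.0.16 (R 4.3.3): TMM factors, quasi-likelihood F tests, 4 group means, 12 residual degrees of freedom, two-sided, Benjamini-Hochberg over all genes at 0.05. SE is the standard error of the log2 fold change. DESeq2 1.42.0, limma 3.58.1 (voom with quality weights), other scalings and filters, a replicate block, a kidney covariate and leaving out each library were alternatives. Steps were tested on simulated data.

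Members and lists were chosen with earlier results of these data known. The 9 members were always named. Other pathway genes were named for an unadjusted p under 0.05 (up to 8 per comparison), correlates of Eva1a as the 5 closest.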

Additional observations from a re-analysis of the deposited data

Results flagged for a closer look

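Within the 4 livers of a diet, 13 of 60 sets of values examined had a highest library whose distance from the next was a larger part of the group's range than the 95% limit of Dixon's test allows. Chance gives about 1 in 20 for separate sets of normally distributed values. These sets share the same 16 libraries, and 5 of the 13 were control 4, so nothing is read from the count. In controls the flagged library was control 4 for Ulk1 (188.6 CPM, next 94.7), Map1lc3a (45.3 CPM, next 24.0), Map1lc3b (555.7 CPM, next 104.6) and Sqstm1 (901.7 CPM, next 327.0), and for the summed fasting response genes (46285 CPM of library totals, next 5690). Gabarapl1 in control 4 did not pass this limit, nor did Becn1, Tfeb, Eva1a or Atg7. In high-protein livers it was liver 4 for Map1lc3a (36.1 CPM, next 30.3), Gabarapl1 (588.5 CPM, next 458.5) and the fasting response sum (15285 CPM, next 8635), and liver 3 for Ulk1 (111.2 CPM, next 81.4). Low-fat liver 1 was highest for Gabarapl1 (503.7 CPM, next 367.3) and low-protein liver 2 for Eva1c (0.397 CPM, next 0.209). Among markers of other cells, control 3 stood apart in the kidney sum (4690 CPM, next 229) and low-fat liver 2 in the erythroid sum (760.7 CPM, next 382). The part of these in the members' levels was not tested.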

How the results depend on the processing

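No core autophagy gene and none of the 106 list genes was called by the alternatives tried, with 1 exception: with only the compared groups in the fit, high protein over low fat called 1 list gene, Retreg1, among 16 genes. Over all genes, edgeR called 0 in each comparison. DESeq2 called 1 for high protein over control, 10 for low protein over control, 4 for low fat over control, 25 for high over low protein and 81 for high protein over low fat, and limma-voom called 1 for the last. Leaving out each library gave 0 to 109 for low fat over control (109 without control 3), 0 to 2 for high over low protein and 0 to 1 for high protein over low fat (both without high-protein liver 3). Voom, which gave control 4 a weight of 0.0965, reversed the sign for high protein over control in Ctsl (0.15), Map1lc3b (0.51) and Retreg1 (0.54), for low protein over control in Atg7 (-0.0097) and Map1lc3b (0.050), and for low fat over control in Atg7 (-0.041) and Map1lc3b (0.16). DESeq2 (-0.0035) and RLE factors (-0.0033) also put Atg7 below 0 for low fat over control; the cause was not tested. Over leave-one-out fits, the log2 fold change over control with high protein ran from -1.83 to 0.41 in Ctsl, -0.75 to 0.65 in Map1lc3b and -2.44 to 0.65 in Retreg1. With low protein it ran from -1.25 to 0.14 in Map1lc3b, and with low fat from -1.23 to 0.17 in Map1lc3b and -0.13 to 0.091 in Atg7. For low fat over low protein Sqstm1 ran from -0.021 to 0.22 and Eva1a from -0.72 to -0.56. Of the 5 genes most like Eva1a, 3 remained without low-fat liver 4 and 2 without control 4. Replicate numbers did not pair the animals: same-numbered animals of different diets correlated at -0.20 to 0.30 (over 0.1 in 8 of 24 pairs, and in 6 of the 24 the best match was the same number). With the replicate block 0 genes were called in every comparison. With 4 animals per diet, small changes of these genes may go uncalled.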
